A study of Homo sapiens with 16 samples.

Results

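A set of 53 genes was read in the ovarian carcinoma cell line OVCAR3 and was silent, or nearly so, in the ovarian carcinoma cell line UWB1.289. The set was chosen on the raw counts of the 59428 genes in the table. A gene entered with at most 3 counts summed over the 8 UWB1.289 libraries and at least 400 counts summed over the 8 OVCAR3 libraries. Of 55 genes past both limits, the homeobox gene EMX2 and the growth factor gene BMP7 were left out by symbol, together with any metallothionein, HOX, keratin, collagen, laminin, integrin or ABC transporter gene. The 53 members made up 0.565% of the 9374 genes with at least 400 counts in OVCAR3, and 8170 genes had at least 400 counts in each line. Because the counts of both lines made the choice, the difference between the lines is a description and was not tested.

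OVCAR3 carries an intact BRCA1 gene, and UWB1.289 carries a deleterious BRCA1 mutation. Each line was kept for 96 h either with olaparib, an inhibitor of the PARP enzymes of DNA strand break repair, or with the solvent DMSO. The 4 groups were OVCAR3 DMSO, OVCAR3 Olaparib (7.5 µM), UWB1.289 DMSO and UWB1.289 Olaparib (3.5 µM), with 4 replicates in each. OVCAR3 was grown with 20% serum and insulin in RPMI1640, and UWB1.289 with 3% serum in a mixture of RPMI1640 and MEGM medium. Each BRCA1 status is thus represented by 1 line, and effects of the line, its BRCA1 status, its dose and its medium cannot be told apart. The labels do not say that the replicates were separate cultures, so p-values measure only the spread between these samples.

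RNA was read with QuantSeq libraries, which are primed at the poly(A) tail and give about 1 fragment per transcript from its 3' end, so a count is not divided by gene length. Total counts ranged from 5706282 to 7152552 in OVCAR3 and from 5599571 to 7730228 in UWB1.289. Summed epithelial and ovarian carcinoma markers lay between 3740 and 4010 CPM (counts scaled to library size) in OVCAR3 DMSO, between 2220 and 2450 in OVCAR3 Olaparib, between 5910 and 6440 in UWB1.289 DMSO and between 4650 and 5590 in UWB1.289 Olaparib. All 7 of these markers had over 3 counts in both OVCAR3 groups, and 1 of them, WT1, had 0 counts in UWB1.289 DMSO. The lower sum in OVCAR3 Olaparib came mainly from the keratin genes KRT18 (46112 counts over the 4 DMSO and 24095 over the 4 olaparib libraries) and KRT8 (21229 and 10870). MUC16 (5373 and 3792) and WT1 (3107 and 2033) were lower as well. EPCAM (8051 and 7536), CDH1 (2906 and 2848) and PAX8 (11485 and 11635) had similar counts in both groups. Summed leukocyte and endothelial markers reached at most 1.49 and 2.66 CPM in OVCAR3, and lay between 8.28 and 20.6 and between 5.18 and 9.69 CPM in UWB1.289. There the leukocyte markers PTPRC (162 counts over the 4 DMSO and 195 over the 4 olaparib libraries), CD14 (83 and 186) and CD68 (16 and 40) were read, and CD3E and MS4A1 were at 0. The endothelial markers PECAM1 (87 and 115), CDH5 (100 and 66) and VWF (6 and 26) were all read in UWB1.289. Fibroblast markers reached at most 0.929 CPM in both lines. The part of these markers in the results for the members was not tested.

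Of the OVCAR3 libraries, Olaparib replicate 4 stood apart from the other olaparib libraries. The chi-square per degree of freedom between its counts and theirs was 8.43 to 13.0, against 3.67 to 4.7 among the other 3 and 3.03 to 5.83 among the DMSO libraries. The counts of members that changed after olaparib are therefore given with and without it.

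Cell lines of 1 tumour type each express a core of shared genes and a set of their own, in which lineage transcription factors, surface receptors and noncoding RNAs are common. Neighbouring genes share a stretch of chromosome, so the reads of the neighbours show how far a silent stretch extends. Long noncoding RNAs are as a class restricted to fewer cell types than protein-coding genes, and antisense or divergent transcripts often accompany genes of developmental transcription factors.

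In UWB1.289, 379 of the 424 values (53 members in 8 libraries) were 0, and no member had more than 3 counts in any 1 library. Over all members, 21 reads were counted in the 4 UWB1.289 DMSO libraries and 32 in the 4 UWB1.289 Olaparib libraries. The UWB1.289 sum was 0 for 26 members, 1 for 11 members, 2 for 6 members and 3 for 10 members. In OVCAR3 the sums ran from 406 to 5322 counts with a median of 880. A sum of 0 over 8 libraries allows up to 3 counts, which covers counting error only.

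**Figure D1:**
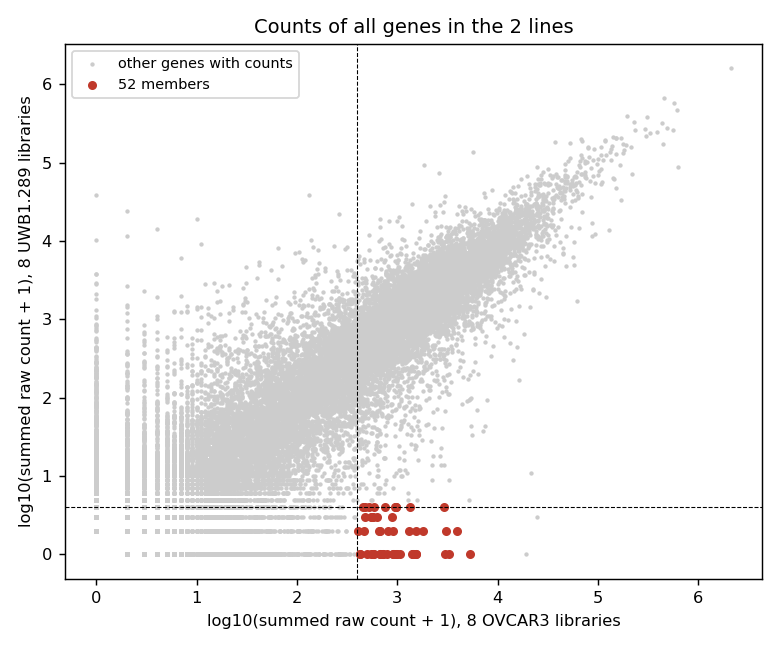
Summed raw counts of each gene over the 8 OVCAR3 libraries (horizontal axis) and the 8 UWB1.289 libraries (vertical axis), both as log10(count + 1), with 52 of the 53 members as red points and all other genes with counts in grey. Dashed lines mark the limits of 400 and 3 counts, and the members lie in the lower right corner by construction.

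The limits cut through a continuous range. Just inside the UWB1.289 limit, with 3 counts there, were CCDC144NL-AS1 (2946 counts in OVCAR3), RASGEF1A (1330) and FOXL2 (980). Just outside it, with 4 counts, were WT1 (5140 in OVCAR3), SORCS1 (1570) and GATD3A (1269). Just inside the OVCAR3 limit were GPR162 with 406 counts, WT1-AS with 420 and RBFOX3 with 426, and just outside it were RP11-11N9.4 with 381, LINGO1 with 373 and LMX1B with 373. WT1, a transcription factor of the urogenital tract, thus missed the set by 1 count although its antisense gene WT1-AS was in it.

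By the annotation, 51 members could be placed on the genome, of which 39 are protein-coding, 11 are long noncoding RNA genes and 1, DUXAP10, is a transcribed pseudogene. The clone-named genes RP11-109M17.2 and RP11-245J24.1 were not placed. Long noncoding RNA genes made up 21.6% of the placed members and 1.25% of the placed genes with at least 400 counts in each line (101 of 8077). The second share leaves out genes read in 1 line only, and the share over all genes with at least 400 counts in OVCAR3 was not computed. Of 19 functional gene lists, 9 held at least 1 member and 10 held none, among them the zinc finger genes with 0 members of 206 genes that reached 400 counts in OVCAR3. The share of members over all genes with that count was 0.565%, so this 0 is not read as a result. The lists with members held 1 or 2 each, apart from the noncoding RNA names with 5 of 110. That list goes by name pattern and did not take in every noncoding member, EMX2OS and WT1-AS among those missed.

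The members do not fall into 1 pathway. The grouping that follows is by known role and was made with the values seen, as was the choice of those members that lie outside the naming rule. Transcription factors and regulators of RNA were FOXL2, a factor of ovarian granulosa cells, NKX2-1, a factor of thyroid and lung, RBFOX3, a neuronal splicing factor, ALKBH5, a demethylase of adenosine in RNA, BZW2, a regulator of translation, PWP2, a component of the machinery that processes ribosomal RNA, and SP140L, of the SP100 family of nuclear body proteins. Receptors, channels and proteins of the cell surface were ADRA2C (an alpha-2 adrenergic receptor), GPR162 (an orphan G protein-coupled receptor), GABRA2 (a subunit of the GABA-A receptor), the netrin receptors UNC5B and UNC5C, CD200, CD99L2, NECTIN1 (an adhesion molecule), CLSTN2 (a calsyntenin of the synapse), PIANP, TSPAN13 (a tetraspanin), ATP2B2 (a calcium pump of the plasma membrane), PRIMA1 (the anchor of acetylcholinesterase) and SLC22A17 (a solute carrier family protein that binds lipocalin-2).

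Proteins of vesicle traffic, cilia and small GTPase signalling were DOC2B and OTOF, both calcium sensors of exocytosis, SNX13, RAB36, IFT27, RASGEF1A and ANKMY2. Secreted proteins and enzymes were VIT, a protein of the extracellular matrix, SELENOP, the selenium carrier of plasma, TMPRSS15, the enteropeptidase of the gut, UGT2B7, a glucuronidating enzyme, BBOX1, the last enzyme of carnitine synthesis, and COX7B2, a cytochrome c oxidase subunit. DACT2 and NKD2 are both inhibitors of the WNT pathway, and PPP1R1A inhibits protein phosphatase 1. RWDD2B and TRIM29 complete the protein-coding members. The noncoding members were EMX2OS, WT1-AS, BMPR1B-DT, CCDC144NL-AS1, CASC9, PART1, LINC02672, LINC01899, LINC00470, CA5BP1 and XIST, the RNA of X inactivation, whose levels are not given.

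The highest OVCAR3 sum belonged to EMX2OS, the antisense gene of EMX2, on the minus strand of chromosome 10. Its raw counts were 821, 674, 872 and 965 in the OVCAR3 DMSO libraries and 456, 473, 518 and 543 in the OVCAR3 Olaparib libraries, and all 8 UWB1.289 libraries were at 0. EMX2 itself, left out of the set by its symbol, had 0 counts in UWB1.289 and 19356 in OVCAR3, so both genes of this overlapping pair were read in 1 line and not in the other. Since the sources used here do not say whether the counting used strand, reads of EMX2OS and EMX2, and likewise of WT1-AS and WT1, cannot be told apart where they overlap. The same limit holds for other members that overlap a counted gene on the opposite strand, among them PART1, CCDC144NL-AS1, UNC5B, UNC5C, BBOX1 and NKX2-1. GPR162 overlaps P3H3 (162 counts in UWB1.289, 238 in OVCAR3) on the same strand, and CA5BP1 overlaps CA5B, so strand would not separate their reads.

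ALKBH5 followed with 424, 438, 429 and 520 raw counts in OVCAR3 DMSO and 525, 557, 559 and 492 in OVCAR3 Olaparib, against 1 count over all UWB1.289 libraries. This gene is used widely across tissues, and its neighbours on chromosome 17 were read in both lines: DRG2 had 1190 counts in UWB1.289 and 1261 in OVCAR3, and LLGL1 had 359 and 1722. RWDD2B on chromosome 21 had 0 counts in UWB1.289 and 2979 in OVCAR3, while its flanking genes LTN1 and USP16 had 1786 and 3014 counts in UWB1.289. CD99L2 on chromosome X had 0 and 914 counts, between MTMR1 with 1393 and HMGB3 with 8352 counts in UWB1.289. For these 3 genes the silent stretch was thus a single protein-coding gene long.

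The members ANKMY2, BZW2, TSPAN13 and SNX13 lay together on chromosome 7. ANKMY2 (chr7:16599779-16645817, minus strand) and BZW2 (chr7:16646131-16706523, plus strand) stand head to head with 313 bp between them, TSPAN13 (chr7:16753755-16784536) starts 47.2 kb beyond BZW2, and SNX13 (chr7:17790761-17940501) lies a further 1010 kb on. All coordinates are of GRCh38. BZW2 had raw counts of 370, 331, 380 and 473 in OVCAR3 DMSO and 380, 420, 416 and 494 in OVCAR3 Olaparib. ANKMY2 had 676 counts over the 8 OVCAR3 libraries, TSPAN13 had 1520 and SNX13 had 922. None of the 4 genes had a single count in any UWB1.289 library.

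The silent stretch around them ran over 14 consecutive protein-coding genes of the table, from DGKB to PRPS1L1 (chr7:14145049-18027846, 3.88 Mb). Over all 14 genes the UWB1.289 libraries held 0 counts and the OVCAR3 libraries held 7265. In OVCAR3, 12 of them had counts and 8 had at least 40. Besides the 4 members these included SOSTDC1 (256), an antagonist of BMP and WNT ligands, AHR (183), the aryl hydrocarbon receptor, and AGR2 (164), a protein disulfide isomerase of secretory epithelium. On the left, ETV1 had 190 counts in UWB1.289 and 51 in OVCAR3, and on the right HDAC9 had 1410 and 1561.

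**Figure D2:**
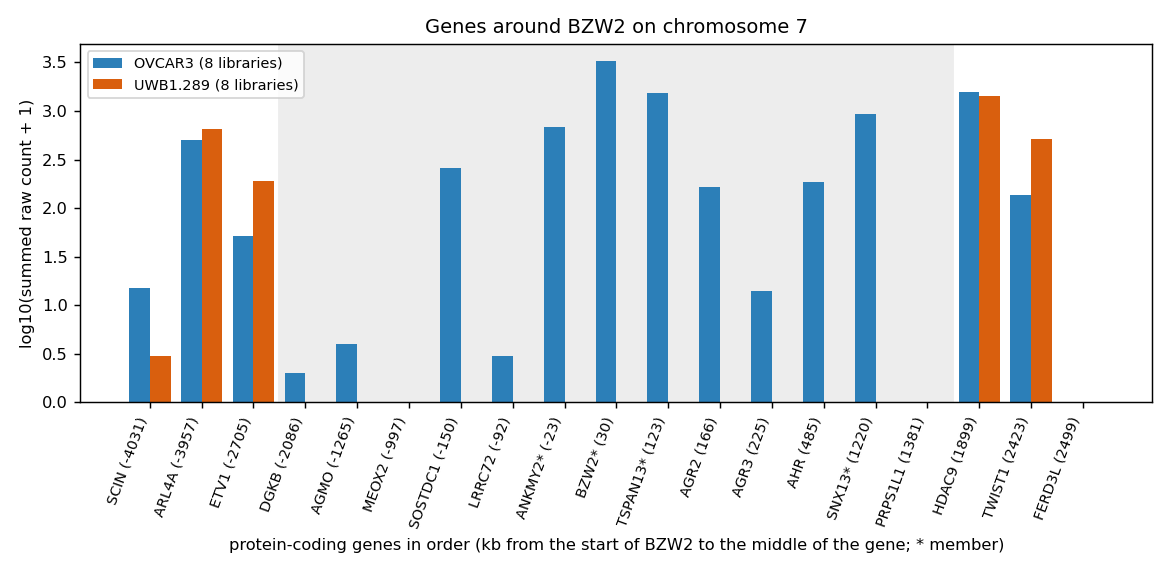
Summed raw counts, as log10(count + 1), of consecutive protein-coding genes around BZW2 on chromosome 7 in the 8 OVCAR3 libraries (blue bars) and the 8 UWB1.289 libraries (orange bars), with the distance in kb of each gene's middle from the start of BZW2 and an asterisk on members. The shaded stretch, drawn without 1 of its 14 genes, has no orange bar, and ETV1 and HDAC9 on its sides have bars of both colours.

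Counted over the genome, runs of consecutive coding genes with at most 3 UWB1.289 counts each mostly held few genes that OVCAR3 expressed. There were 205 runs with 1 gene of at least 40 OVCAR3 counts, 18 runs with 2, 3 runs with 3 and 1 run with 8, which was the chromosome 7 stretch. Whether the DNA of the stretch is present in UWB1.289 was not measured.

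Promoter sequences from RefSeq (GRCh38.p14, from 250 bases before to 50 bases after the start) were given for 35 of the 53 members, 66.0%. That is under 80%, so a comparison of the members as a set with other promoters is void and was not made. The promoters of 5 members are shown, since these members are the head-to-head pair of the silent stretch, the most highly counted member that stands alone among expressed neighbours, and the members with the largest fall and the largest rise after olaparib. The CpG dinucleotides, which can carry DNA methylation, are in capitals.
BZW2, plus strand, chr7:16645931-16646230: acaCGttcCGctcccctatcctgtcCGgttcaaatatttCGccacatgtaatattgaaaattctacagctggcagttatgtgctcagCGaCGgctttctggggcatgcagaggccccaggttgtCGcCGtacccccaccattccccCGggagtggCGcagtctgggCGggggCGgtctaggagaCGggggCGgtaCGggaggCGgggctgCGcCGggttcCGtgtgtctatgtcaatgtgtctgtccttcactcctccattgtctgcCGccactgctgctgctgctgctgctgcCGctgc
ANKMY2, minus strand, chr7:16645705-16646004: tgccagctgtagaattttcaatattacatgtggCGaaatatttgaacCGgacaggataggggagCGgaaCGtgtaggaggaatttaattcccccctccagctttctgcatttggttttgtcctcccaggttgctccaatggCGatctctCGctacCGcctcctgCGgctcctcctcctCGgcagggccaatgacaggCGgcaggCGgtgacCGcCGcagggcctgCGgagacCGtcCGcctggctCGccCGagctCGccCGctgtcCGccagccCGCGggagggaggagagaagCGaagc
ALKBH5, plus strand, chr17:18183578-18183877: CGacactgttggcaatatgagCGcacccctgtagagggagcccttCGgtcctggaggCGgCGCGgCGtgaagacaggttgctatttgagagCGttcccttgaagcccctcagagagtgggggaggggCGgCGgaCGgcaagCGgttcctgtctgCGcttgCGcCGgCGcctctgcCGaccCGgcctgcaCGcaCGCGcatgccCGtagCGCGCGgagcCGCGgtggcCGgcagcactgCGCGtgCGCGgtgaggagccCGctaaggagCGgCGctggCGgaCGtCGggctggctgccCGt
VIT, plus strand, chr2:36696457-36696756: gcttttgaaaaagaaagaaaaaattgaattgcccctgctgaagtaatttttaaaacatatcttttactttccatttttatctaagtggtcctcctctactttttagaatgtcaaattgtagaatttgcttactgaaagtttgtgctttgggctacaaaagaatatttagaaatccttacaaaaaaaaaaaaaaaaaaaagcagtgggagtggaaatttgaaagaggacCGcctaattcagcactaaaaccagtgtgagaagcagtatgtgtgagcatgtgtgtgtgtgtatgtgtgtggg
GABRA2, minus strand, chr4:46390251-46390550: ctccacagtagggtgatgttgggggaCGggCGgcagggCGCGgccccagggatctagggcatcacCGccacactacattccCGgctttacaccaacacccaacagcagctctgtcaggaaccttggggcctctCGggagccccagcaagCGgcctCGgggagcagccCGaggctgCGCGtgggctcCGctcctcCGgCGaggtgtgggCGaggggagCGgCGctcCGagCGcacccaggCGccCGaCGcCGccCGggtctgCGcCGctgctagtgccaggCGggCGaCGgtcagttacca

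The windows of BZW2 and ANKMY2 overlap by 74 bp, so the pair shares part of its promoter sequence on opposite strands. The ALKBH5 window held 39 CpG, the GABRA2 window 30, the ANKMY2 window 24, the BZW2 window 21 and the VIT window 1. As a ratio of the observed to the expected CpG number, this was 1.05 for ALKBH5, 0.851 for ANKMY2, 0.786 for GABRA2, 0.744 for BZW2 and 0.124 for VIT, with medians of 0.58 and 14 CpG over all 27303 promoters given for scale only. Both strands were searched for a GC box (GGGCGG), found in the windows of BZW2, ALKBH5 and GABRA2 and in 44.6% of all promoters, for a CCAAT box (CCAAT), found in the ANKMY2 window and in 35.7%, and for a TATA box (TATAAA), found in none of the 5 and in 12%. No methylation was measured in these samples.

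Most members stood beside genes with more than 3 summed counts in UWB1.289, though some of these genes had far fewer counts there than in OVCAR3. The 3 nearest coding genes on each side of each member were taken, and those that were members themselves were then left out. Since members are silent in UWB1.289 by the rule, leaving them out raises the shares. A gene near 2 members was counted for each. Of the 292 neighbours so counted, 184 had more than 3 counts in UWB1.289, which is 63.0%, beside 81.5% of the neighbours of genes with at least 400 counts in each line. Among the 174 neighbours with at least 40 counts in OVCAR3, a restriction added with the data in view, the share was 89.7%, beside 98.6%. Taking the nearest coding gene with at least 40 OVCAR3 counts on each side, 37 members had a gene with more than 3 UWB1.289 counts on both sides, 11 on 1 side and 3 (ANKMY2, BZW2 and TSPAN13) on neither. DUXAP10 and DOC2B, counted among the 11, had such a neighbour on 1 side of the chromosome only, and some genes lay near the limit, such as WT1 beside WT1-AS with 4 counts and FOXL2NB beside FOXL2 with 2. VIT, for example, lies between FEZ2 with 4362 and STRN with 2914 UWB1.289 counts, and SP140L between its relatives SP110 with 2539 and SP100 with 3298. TMPRSS15, also counted among the 37, lies between CHODL with 33 UWB1.289 and 673 OVCAR3 counts and NCAM2 with 7 and 155.

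Another member lay within 1 Mb of 13 members, in 8 pairs. Apart from the chromosome 7 genes these pairs were PIANP and GPR162 (121 kb apart, chromosome 12), GABRA2 and COX7B2 (260 kb, chromosome 4), NECTIN1 and TRIM29 (382 kb, chromosome 11), BMPR1B-DT and UNC5C (405 kb, chromosome 4) and FOXL2 and CLSTN2 (988 kb, chromosome 3). Chromosome 4 held 6 members, 11.8% of those placed beside 3.45% of the genes with at least 400 counts in each line, and chromosome 21 held 3, 5.88% beside 1.03%. Chromosomes 1, 9, 13, 15, 16, 19 and 20 held none.

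The olaparib response of the members in OVCAR3 was not used by the rule and was tested in the 8 OVCAR3 libraries with edgeR over all 13031 genes that passed the filter on low counts, among them all 53 members. A gene was called at an adjusted p below 0.1, a change over 2-fold and an average normalized count above 10. Normalized counts are raw counts divided by the effective library size and multiplied by its mean. In what follows, rose and fell are used at an adjusted p below 0.1, whatever the fold.

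After olaparib, 5 members fell over 2-fold (VIT, PART1, BMPR1B-DT, LINC02672 and ADRA2C) and 2 rose over 2-fold (GABRA2 and CLSTN2). That is 9.43% and 3.77% of the 53 members, beside 2.33% called down and 2.9% called up over all tested genes. Without the 2-fold limit, 24 members (45.3%) fell and 6 (11.3%) rose, beside 16% and 15.5% of all tested genes and 16.3% and 18.1% of the genes with at least 400 counts in each line. In 18 members (34.0%) all 4 olaparib libraries lay below all 4 DMSO libraries, and in 6 (11.3%) above them, beside 13.1% and 12.6% of all tested genes. The median log2 fold change of the members was −0.29, with 37 members lower and 16 higher. It was −0.012 over all tested genes and 0.0075 over the genes with at least 400 counts in each line. Over the 9321 other genes with at least 400 counts in OVCAR3 the median was −0.0042. Of these genes 1.23% were called down and 1.76% up, and at any fold 17.7% fell and 17.5% rose. The groups did not overlap in 14.7% of them downward and 13.9% upward. Lists chosen with results known were given no test, so these shares stand as a description. Without Olaparib replicate 4, 5 of the 53 members were called down and 1 up, beside 320 down and 384 up of the 13249 genes then tested. At any fold 27 members (50.9%) fell and 7 (13.2%) rose, beside 16.9% and 16.7% of the genes then tested. The groups then did not overlap in 22 members (41.5%) downward and 7 (13.2%) upward, beside 16.5% and 16.2% of all tested genes, and the members' median was −0.352.

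**Figure D3:**
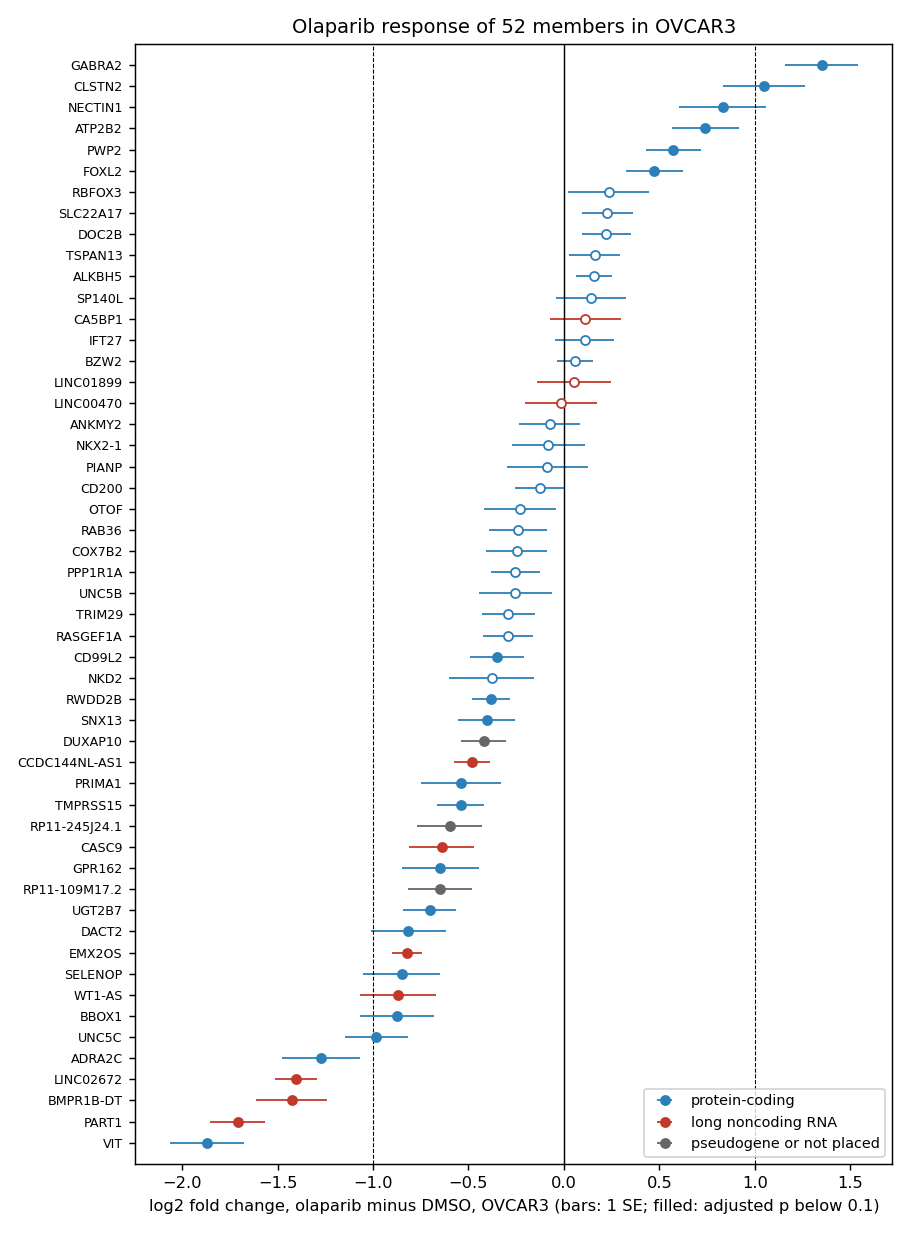
Log2 fold change, olaparib minus DMSO, of 52 members in OVCAR3 with bars of 1 SE, from edgeR on 4 libraries per group, coloured by gene class and filled where the adjusted p was below 0.1. Dashed lines mark 2-fold, which VIT, PART1, BMPR1B-DT, LINC02672 and ADRA2C passed downward and GABRA2 and CLSTN2 upward.

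VIT encodes vitrin, an extracellular matrix protein. Its normalized counts were 156, 123, 171 and 188 in the DMSO libraries and 37.0, 29.9, 44.3 and 62.5 in the olaparib libraries. The highest olaparib library was below the lowest DMSO library, and VIT was 3.65-fold lower after olaparib (log2 fold change −1.87 ± 0.195 SE, n = 4 per group, edgeR adjusted p = 6.42e-07).

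PART1 is a long noncoding RNA gene that overlaps PDE4D on the opposite strand. It had normalized counts of 320, 222, 261 and 304 with DMSO and of 81.2, 66.9, 97.0 and 92.4 with olaparib, a 3.27-fold fall (log2 −1.71 ± 0.144 SE, edgeR adjusted p = 3.33e-08). LINC02672 had 555, 539, 605 and 555 with DMSO and 209, 166, 229 and 247 with olaparib, a 2.64-fold fall (log2 −1.40 ± 0.108 SE, edgeR adjusted p = 9.89e-09). The 2 groups did not overlap in either gene, and both were among the 15 most highly counted members.

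ADRA2C, the alpha-2C adrenergic receptor, had 199, 123, 131 and 186 with DMSO and 42.1, 64.9, 94.2 and 62.5 with olaparib. The spread within each group was wide, yet the groups did not overlap, and the gene fell 2.41-fold (log2 −1.27 ± 0.204 SE, edgeR adjusted p = 0.000104).

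BMPR1B-DT is transcribed away from BMPR1B, the gene of a BMP receptor, on chromosome 4. Its normalized counts were 99.2, 82.9, 90.7 and 97.5 with DMSO and 33.9, 42.2, 36.7 and 25.4 with olaparib, a 2.69-fold fall (log2 −1.43 ± 0.185 SE, edgeR adjusted p = 1.02e-05). BMPR1B had 10 counts in UWB1.289 and 525 in OVCAR3, which put it outside the set, and it fell as well, from 99.2 ± 15.7 to 32.9 ± 13.7 (SD, n = 4) with a log2 fold change of −1.58 (edgeR adjusted p = 3.21e-05). The next gene of that stretch, the netrin receptor gene UNC5C, had 99.2, 97.9, 84.0 and 98.4 with DMSO and 49.3, 43.3, 56.5 and 42.6 with olaparib. UNC5C fell 1.98-fold (log2 −0.98 ± 0.165 SE, edgeR adjusted p = 0.000178), just short of 2-fold, and passed 2-fold without DMSO replicate 3 (log2 −1.04) or without Olaparib replicate 3 (log2 −1.06). All 3 neighbouring genes were therefore lower in every olaparib library than in any DMSO library.

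GABRA2, the alpha-2 subunit of the GABA-A receptor, was the member with the largest rise. Its normalized counts were 53.4, 44.9, 32.5 and 30.3 with DMSO and 111, 98.9, 110 and 87.8 with olaparib, 2.55-fold higher (log2 1.35 ± 0.191 SE, edgeR adjusted p = 2.66e-05). COX7B2, its neighbouring member, had a log2 fold change of −0.25 (edgeR adjusted p = 0.279), so the 2 genes of this pair gave values of opposite sign.

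CLSTN2 had 54.5, 35.7, 32.5 and 45.4 with DMSO and 74.0, 85.5, 66.9 and 120 with olaparib (log2 1.05 ± 0.216 SE, edgeR adjusted p = 0.00129). It was 2.07-fold higher and close to the limit. It missed 2-fold without DMSO replicate 2 (log2 0.98), without DMSO replicate 3 (0.94) or without Olaparib replicate 4 (0.84). NECTIN1, an adhesion molecule of epithelial junctions, rose 1.78-fold (log2 0.83 ± 0.228 SE, edgeR adjusted p = 0.0108) with overlapping groups, and passed 2-fold without DMSO replicate 2 (1.07).

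**Figure D4:**
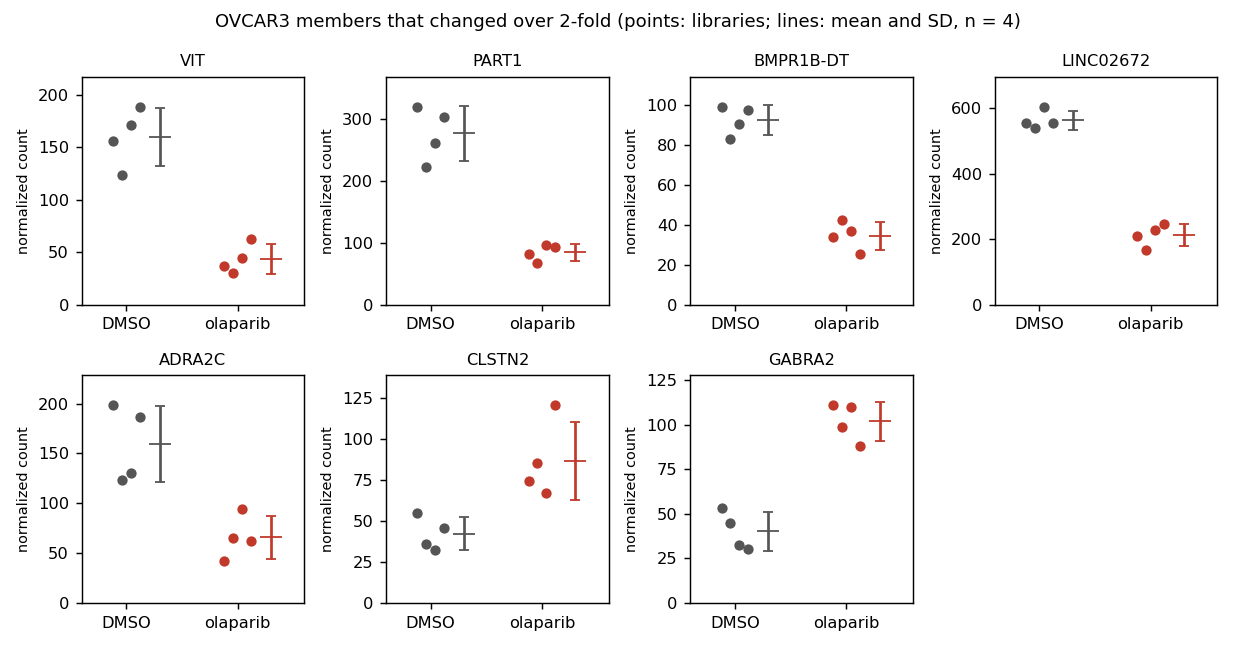
Normalized counts of the 7 members called after olaparib in the 4 DMSO (grey) and 4 olaparib (red) libraries of OVCAR3, 1 panel per gene with an axis from 0, points for libraries and a bar for the mean and SD. In each panel the points of the 2 groups do not overlap, with VIT, PART1, BMPR1B-DT, LINC02672 and ADRA2C lower and CLSTN2 and GABRA2 higher after olaparib.

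The 11 long noncoding RNA members had a median log2 fold change of −0.64, and 8 of them fell, 3 over 2-fold, while none rose. Over all 531 tested long noncoding RNA genes the median was −0.18, and 21.5% fell (6.21% called down) and 6.78% rose (1.88% called up). The 39 protein-coding members had a median of −0.24, with 13 that fell and 6 that rose, 2 over 2-fold in each direction. Over all 11647 tested protein-coding genes 15.7% fell (2% called down) and 16.5% rose (2.96% called up). Unlike the members, the tested genes of either class were not limited to at least 400 OVCAR3 counts, so these shares are not at like counts. The members of the 2 classes were not tested against each other. EMX2OS fell 1.77-fold, from 854 ± 62.5 to 484 ± 10.4 normalized counts (SD, n = 4, edgeR adjusted p = 2.35e-07), and its partner EMX2 had a log2 fold change of −0.59 (edgeR adjusted p = 1.39e-05). WT1-AS fell 1.83-fold (edgeR adjusted p = 0.00292), and the log2 fold change of WT1 was −0.68 (edgeR adjusted p = 0.000804). Both overlapping pairs therefore moved in the same direction, with the limit on strand given above.

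Among the transcription factors, FOXL2 rose 1.39-fold, from 103 ± 22 to 142 ± 6.68 normalized counts (SD, n = 4, edgeR adjusted p = 0.0249), and its groups did not overlap. NKX2-1 had a log2 fold change of −0.081 with 0.189 SE (edgeR adjusted p = 0.802). PWP2 rose 1.49-fold, from 106 ± 16.2 to 158 ± 21.6 (edgeR adjusted p = 0.00618), and ATP2B2 rose 1.67-fold, from 62.2 ± 8.18 to 104 ± 21.5 (edgeR adjusted p = 0.00379). Of the secreted proteins and enzymes named above, besides VIT, UGT2B7 fell 1.63-fold, SELENOP 1.8-fold, BBOX1 1.83-fold and TMPRSS15 1.45-fold, with the groups of SELENOP and BBOX1 overlapping, whereas COX7B2 did not pass the test (edgeR adjusted p = 0.279). DACT2 fell 1.76-fold, and the other WNT inhibitor, NKD2, had a log2 fold change of −0.38 (edgeR adjusted p = 0.232).

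The 4 members of the chromosome 7 stretch gave no common response. BZW2 had 399 ± 36.5 normalized counts with DMSO and 416 ± 28.8 with olaparib (SD, n = 4, edgeR adjusted p = 0.697), TSPAN13 had 180 ± 24.6 and 201 ± 30.9 (adjusted p = 0.412) and ANKMY2 had 86.9 ± 6.38 and 82.5 ± 14.6 (adjusted p = 0.789). SNX13 fell 1.32-fold, from 133 ± 14.7 to 100.3 ± 17.8 (edgeR adjusted p = 0.0554). Of their neighbours, SOSTDC1 (log2 fold change −1.33, edgeR adjusted p = 0.00033) and AGR2 (−1.37, edgeR adjusted p = 0.00673) fell over 2-fold, AHR had a log2 fold change of 0.54 (edgeR adjusted p = 0.193), and HDAC9 beyond the right end rose over 2-fold (1.03, edgeR adjusted p = 7.27e-06). ALKBH5 had 467 ± 42.1 and 521 ± 54.2 normalized counts (edgeR adjusted p = 0.249), and RWDD2B fell 1.3-fold (edgeR adjusted p = 0.00804).

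In 7 members at least 150 of the last 300 transcript bases matched another gene at 95% identity or more, so the split of reads is uncertain. PWP2 matched an annotated copy of itself on chromosome 21, DUXAP10 matched DUXAP8 (479 counts in UWB1.289, 925 in OVCAR3) and DUXAP9 (5 and 662), CA5BP1 matched CA5B (92 and 230), and CCDC144NL-AS1 matched the ends of several genes. GABRA2, WT1-AS and XIST matched further annotated transcripts. How reads with several matches were counted is not given in the sources used here, and a count at or near 0 in UWB1.289 for these genes carries that limit.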

How the data were processed

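The 16 libraries were grouped by the labels into line and treatment, 4 per group. For the QuantSeq reads the authors used BBDuk (trimming), STAR 2.7.9a in 2-pass mode (alignment to hg38) and featureCounts 2.0.0 with GENCODE release 38 (counting per gene). The deposited values are raw counts, whole numbers that were not normalized. How strand and reads with several matches were handled is not given in the sources used here. The versions are those of the submitters' processing notes.

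The members and gene lists were chosen with earlier results of these data known. Replicates were compared for duplicates: of 24 pairs 0 were identical, and their chi-square per degree of freedom ran from 3.03 to 13.0. Olaparib was compared with DMSO in the OVCAR3 libraries in R 4.3.3 with edgeR 4.0.16 (TMM, filterByExpr and its quasi-likelihood F test), and p-values were adjusted over all tested genes after Benjamini and Hochberg. The limits on the adjusted p, fold change and average count are those of the study, which used DESeq2. Tested on simulated data of this comparison with 200 genes changed by a log2 fold of 2, edgeR called 200 of them and 1 unchanged gene among 12849 genes, and DESeq2 1.42.0 called 200 and 0. Smaller changes, such as those of the members, were not simulated, so recovery at their size is not known. Members are named by rule: the 15 highest counts, all called, those on a gene list, those within 1 Mb of another, and the 3 nearest each limit. Positions come from GENCODE release 44 on the same build, which placed genes with 99.4% of the counts. Transcript ends were compared with blastn 2.17.0. Alternatives were DESeq2, its size factors, no filter on low counts, other limits, a fit of all 16 libraries, a block for the replicate number, and each library left out. Results for 1 gene are counted in totals and not otherwise reported here.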

Additional observations from a re-analysis of the deposited data

Results flagged for a closer look

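Of 72 groups of 4 OVCAR3 libraries examined for members, 3 had a library far from the others, and chance alone sets apart about 1 in 20 (5%). RWDD2B stood at 499 normalized counts in OVCAR3 DMSO replicate 3, against 388 to 405 in the other DMSO libraries. UNC5C was lowest in the same library, OVCAR3 DMSO replicate 3, at 84.0 normalized counts against 97.9 to 99.2. RASGEF1A, an exchange factor of Ras proteins, stood at 177 in OVCAR3 Olaparib replicate 2, against 137 to 143.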

How the results depend on the processing

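The calls of 2 members up and 5 down kept these numbers with DESeq2, with its size factors, without the filter on low counts, with all 16 libraries in the fit, at an adjusted p below 0.05 and at an average count above 50. Leaving out 1 library gave 1 to 2 called up, with 1 without OVCAR3 DMSO replicate 3 or without OVCAR3 Olaparib replicate 4, and 5 to 7 called down. With no fold-change threshold 6 were up and 24 down. The median log2 fold change of the members lay between −0.352 (without OVCAR3 Olaparib replicate 4) and −0.225 (without OVCAR3 Olaparib replicate 3) with 1 library left out, and between −0.295 and −0.283 under the other settings. The deviations of OVCAR3 libraries that share a replicate number correlated at 0.0991, 0.209, 0.0651 and 0.153 over 8607 genes, so the numbers were not taken as pairs. With the replicate number as a block, 2 were called up and 5 down and the median was −0.29.

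The rule would select 26 genes at 0 UWB1.289 counts, 81 at up to 10, 93 at 200 or more OVCAR3 counts and 28 at 800 or more. Within 100 kb, 3 members had another member nearby, and the share of neighbours read in UWB1.289 was 89.7% among those with at least 40 OVCAR3 counts, a setting added after seeing the data. Of 468 values of the 36 named members from fits other than the reported one, 448 kept direction and side of the limits, 3 fell short, 3 newly passed and 14 changed sign. With 1 library left out, log2 fold changes ran from −0.168 to 0.0239 in ANKMY2, from −0.215 to 0.0878 in LINC00470, from −0.0921 to 0.259 in LINC01899, from −0.239 to 0.107 in NKX2-1, from −0.231 to 0.0518 in PIANP and from −0.00683 to 0.334 in SP140L. The cause was not tested. The CpG comparison with another background was not run, since too few promoters were given. A member near 50 counts per library carries a large counting error.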
